A study of Mus musculus with 15 samples.

Results

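The genes of the Kv4 potassium channel complex were followed in mouse Purkinje cells (PCs) over the first postnatal weeks. They were the pore-forming alpha subunits Kcnd1, Kcnd2 and Kcnd3, the Kv channel interacting proteins (KChIPs) Kcnip1, Kcnip2, Kcnip3 and Kcnip4, and the dipeptidyl peptidase-like (DPP) subunits Dpp6 and Dpp10. They were chosen by name, through the GENCODE M21 symbols of the Ensembl gene IDs in the files, and made up 9 of the 38561 gene IDs. PCs, the output neurons of the cerebellar cortex, were cut from sections of cerebellum by laser capture microdissection, in which chosen cells are excised under a microscope, and their RNA was sequenced. The 15 samples formed 5 groups of 3 biological replicates, at postnatal days 0, 4, 8, 14 and 21 (P0, P4, P8, P14 and P21). All groups were male mice of 1 strain, given as C57/BL6 in the methods of the study and as C56/BL6 in the sample labels, and the labels name no allele or agent for any group. Single PC somata were collected from P4 to P21, whereas at P0 clusters of PCs were collected, so that a difference between P0 and the later time points cannot be told apart from this difference in capture.

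Kv4 channels carry the A-type potassium current, which activates below the firing threshold and inactivates quickly, and they act mainly in the soma and dendrites of neurons. KChIPs are calcium-binding proteins of the neuronal calcium sensor family that bind the alpha subunits, raise their number at the cell surface and slow their inactivation. DPP subunits span the membrane once, belong to a peptidase family but lack peptidase activity, and bring the channel to the surface while speeding its gating. In PCs, A-type channels are among the conductances that shape dendritic excitability and firing.

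Total counts on genes ranged from 3409371 to 7814951 per sample, so that a gene without a count in a sample lay below 3 counts of that total, a limit that covers counting error only. Between replicates of a time point, the Pearson correlation of log2 CPM (the counts set to the same library size in every sample) over the genes tested lay between 0.771 and 0.909, lowest among the P0 samples. HTSeq, the counting program, assigned reads to genes, to no annotated feature or to several genes. Those assigned to no feature made up 16.7 to 29.8%, with the highest shares in the 3 P0 samples. Only reads lying fully inside a feature were counted, so reads assigned to no feature need not lie outside genes. Markers of PCs (Ppp1r17, Car8, Calb1, Pcp4, Itpr1 and Pcp2, 6 in all) had counts at every time point, and their summed level rose from 4549 to 6007 CPM at P0 to 36886 to 46640 CPM at P21. Of these markers, Ppp1r17 had few counts early, 3 to 8 per sample at P0 and 1 to 120 at P4. Since each sample is a mixture, a higher share of PCs in the captured material and more of an mRNA per PC cannot be told apart.

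All 9 genes are protein-coding. On GRCm38, Kcnd1 lies at chrX:7822289-7838280, Kcnd2 at chr6:21215503-21729805 and Kcnd3 at chr3:105452330-105674002, all on the plus strand. The KChIP genes are on the minus strand, Kcnip1 at chr11:33629339-33993152, Kcnip2 at chr19:45791839-45816061, Kcnip3 at chr2:127456498-127522094 and Kcnip4 at chr5:48389502-49524907. Dpp6 lies on the plus strand at chr5:26817203-27727505 and Dpp10 on the minus strand at chr1:123321471-124045559. Kcnip4 spans 1135406 bases of genome but has 3627 bases of exon, and Dpp10 has the longest exon sequence of the group with 15784 bases. Exons of Kcnip4 overlap those of 5730480H06Rik and Gm20700 on the other strand, which had 575 and 180 counts over all samples, and exons of Kcnd3 overlap those of Kcnd3os, which had 39. Whether strand was used in counting is not given in the sources used here, so reads of these overlapping stretches cannot be told apart. The totals of Kcnip4 and Kcnd3 over all samples were 13591 and 4404 counts.

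The stretches of genome just before the start sites of Dpp6, Dpp10, Kcnip4 and Kcnip1 are shown because the courses of the DPP genes differed. The last 3 genes rose together, whereas Dpp6 fell in the trend, a call that was lost without the P0 samples. The stretches were taken from RefSeq on GRCm38.p6. Each holds the 150 bases before a start, written 5′ to 3′ on the strand of the gene, with matches to a searched motif in capitals. Where a gene has several RefSeq starts, the most upstream start whose stretch holds no GENCODE M21 exon was taken. The stretches lie at chr5:27049049-27049198 (plus strand) for Dpp6, chr1:124045560-124045709 (minus) for Dpp10, chr5:49285660-49285809 (minus) for Kcnip4 and chr11:33993194-33993343 (minus) for Kcnip1.
Dpp6: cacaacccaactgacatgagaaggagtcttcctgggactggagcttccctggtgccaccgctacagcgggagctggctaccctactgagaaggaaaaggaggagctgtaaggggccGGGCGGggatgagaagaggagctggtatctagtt
Dpp10: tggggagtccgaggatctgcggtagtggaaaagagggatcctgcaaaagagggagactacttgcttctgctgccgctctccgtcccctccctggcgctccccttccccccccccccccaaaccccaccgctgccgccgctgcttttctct
Kcnip4: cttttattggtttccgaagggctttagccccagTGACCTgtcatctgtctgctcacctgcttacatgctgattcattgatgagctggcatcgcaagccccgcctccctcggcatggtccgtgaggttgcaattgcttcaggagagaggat
Kcnip1: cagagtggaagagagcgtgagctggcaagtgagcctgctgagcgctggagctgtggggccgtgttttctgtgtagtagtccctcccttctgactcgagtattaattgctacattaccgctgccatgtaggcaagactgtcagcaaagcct

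Over both strands, the GC box GGGCGG, the TATA box TATAAA and AGGTCA, the core motif bound by nuclear receptors such as Rora, a factor needed for PC development, were searched in windows of 300 bases, from 250 before each RefSeq start to 50 from it on. Such windows matched 8 of the 9 genes, with 15 windows in all, and Kcnd1 was not matched. GGGCGG was in 8 of the 15 windows against 35.7% of all 32851 windows of this length, AGGTCA in 2 (1 of Kcnip4, which reads TGACCT on the strand shown, and 1 of Dpp6) against 16.3%, and TATAAA in 1 (Dpp6) against 13.6%. The window of Dpp10 held GGGCGG outside the stretch shown. The AGGTCA and TATAAA matches of Dpp6 were in windows of other starts of the gene, whose stretches are not shown. A match describes letters and not a site that a factor uses, and counts per gene do not tell which start was transcribed.

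Levels of different genes were compared as RPKM, which scales the counts to the kilobases of exon and to the total counts on genes of the sample. At P0, Kcnip4 (14.01 ± 3.41 RPKM, SD, n = 3), Dpp6 (13.3 ± 5.83), Kcnip1 (12.9 ± 8.12) and Kcnd2 (11.6 ± 2.31) had overlapping ranges at the top of the order. Kcnd3 (2.97 ± 1.17), Dpp10 (2.17 ± 1.45), Kcnip3 (1.41 ± 2.33) and Kcnd1 (0.824 ± 1.03) followed, each overlapping with the next, and Kcnip2 had no count. At P21 the order was led by Kcnip1 (106 ± 22.2 RPKM) and Kcnip4 (88.9 ± 5.16), whose ranges overlapped. Dpp10 (26.1 ± 3.83) stood below them and above Kcnd2 (18.6 ± 1.28) without overlap, and Kcnip3 (12.5 ± 4.85) overlapped with Kcnd2 and with Kcnd3 (9.97 ± 0.901). Dpp6 (5.01 ± 0.882) and Kcnd1 (3.79 ± 1.86) overlapped, and Kcnip2 (0.356 ± 0.616) was again the lowest. Dpp10 thus moved from the sixth to the third place in the order of means, and Dpp6 from the second to the seventh.

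For each gene over time, CPM was scaled with TMM, a normalization for differences in RNA composition between samples, and 14293 genes with enough counts were tested with edgeR's quasi-likelihood test. All 9 genes passed the filter on low counts. A gene was called at an adjusted p (Benjamini-Hochberg over all genes tested) below 0.05. In the trend with postnatal day, 6 of the 9 genes rose (Kcnd1, Kcnd2, Kcnd3, Kcnip1, Kcnip4 and Dpp10), where 12.1% of all genes tested were called as rising. Dpp6 was the 1 gene that fell, where 14.1% of all genes were called as falling, and Kcnip2 and Kcnip3 did not pass. The median slope of the 9 genes was 0.10 log2 units per day, against -0.0077 for all genes tested and 0.13 for the 6 PC markers, all of which rose. With the time point as a factor, which also detects peaks and dips, 5 of the 9 genes changed (Kcnd2, Kcnd3, Kcnip1, Kcnip4 and Dpp10), against 19.3% of all genes. Dpp6 (adjusted p = 0.0953) and Kcnip3 (0.0544) did not pass here but did under some of the alternatives. Every P14 and P21 sample lay above every P0 and P4 sample for 4 of the 9 genes (Kcnd3, Kcnip1, Kcnip4 and Dpp10), against 8.24% of all genes, and lay below for none of the 9, against 7.14%. Without the P0 samples 6 of the 9 still rose and 0 fell, where 1411 of all genes tested were called as rising and 1526 as falling. Without the P21 samples 5 of the 9 rose and 0 fell, where 1244 of all genes tested were called as rising and 1097 as falling. With all samples these numbers were 1729 and 2021. In each fit that left out samples, the filter on low counts was applied anew. The number of genes tested there may thus differ from 14293, and shares are not given.

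**Figure D1:**
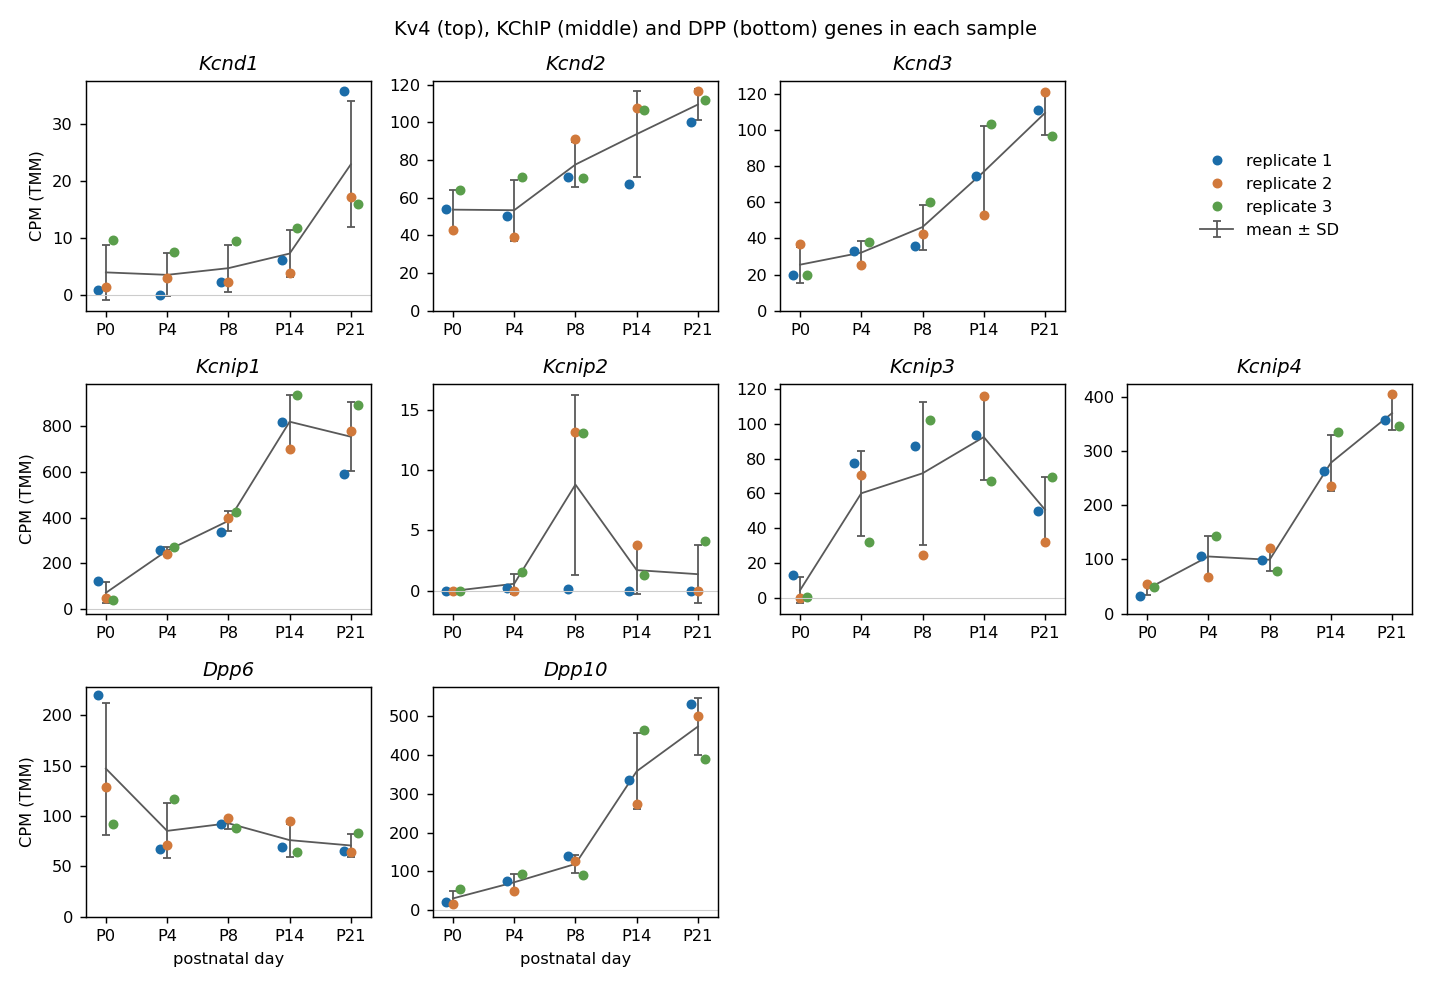
TMM-scaled CPM (y axis, linear, a separate range in each panel) of the 9 genes by postnatal day (x axis, time points evenly spaced). Points are samples coloured by replicate, and the line joins means with SD bars (n = 3): Kcnd3, Kcnip1, Kcnip4 and Dpp10 are higher in all P14 and P21 samples than in any P0 or P4 sample, Dpp6 is highest in a P0 sample at 219.6 CPM, and Kcnip2 stays at or below 13.2 CPM.

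**Figure D2:**
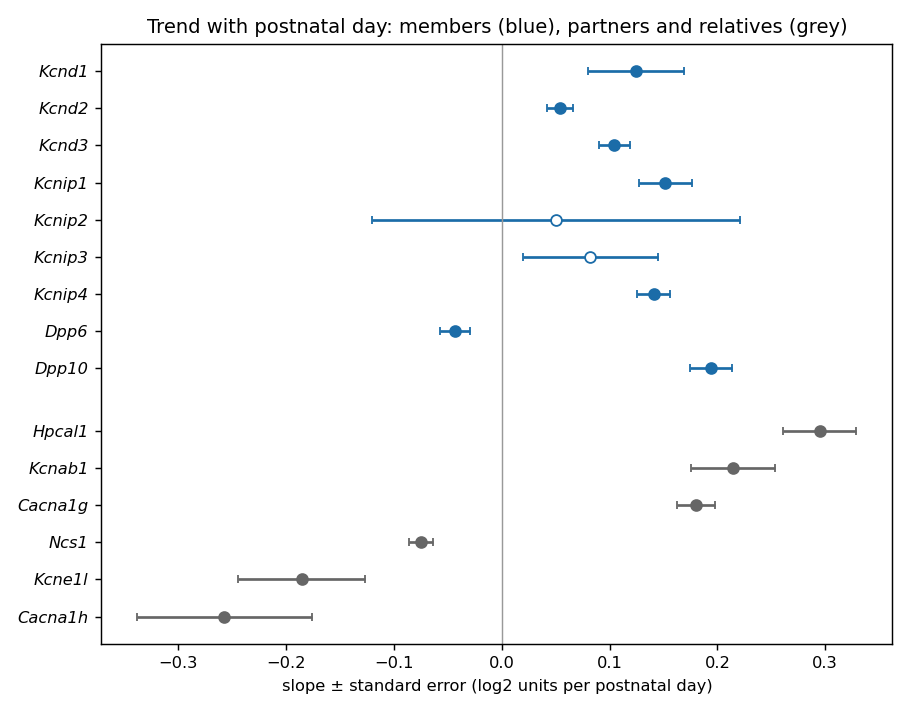
Slope of each gene with postnatal day in log2 units per day (x axis) with its standard error, for the 9 genes (blue) and the 6 named partners and relatives (grey). Filled points have an adjusted p below 0.05 in edgeR's test, and open points (Kcnip2 and Kcnip3) do not; Dpp10 has the steepest rise of the 9 genes at 0.19, and Dpp6 lies left of 0 at -0.043.

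The alpha subunit gene Kcnd2 was at 53.8, 42.9 and 64.3 CPM in the P0 replicates and at 50.04, 39.1 and 70.9 at P4. It was at 71.0, 91.4 and 70.5 CPM at P8, at 67.4, 107.6 and 106.3 at P14 and at 100.1, 116.5 and 111.9 at P21. The P21 samples all lay above the P0, P4 and P8 samples, whereas the lowest P14 sample fell within the range of P4. Kcnd2 rose 2.04-fold from P0 to P21 (log2 1.03 ± 0.29, SE, adjusted p = 0.0157, edgeR), where 12.2% of all genes tested were called as higher at P21, with a slope of 0.054 ± 0.012 log2 units per day (adjusted p = 0.00221). Its change over time points (adjusted p = 0.0355) passed the threshold in 3 of 15 fits that each left out 1 sample (P0 replicate 3, P4 replicate 3 or P14 replicate 1), and the adjusted p reached 0.0949 without P21 replicate 2. Its call from P0 to P21 was lost without P0 replicate 2 (adjusted p = 0.0707) or P21 replicate 2 (0.0525).

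Kcnd3, an alpha subunit that also carries the A-type current in heart, rose more steeply. It was at 19.6, 36.9 and 19.9 CPM at P0, at 33.1, 25.4 and 38.0 at P4 and at 36.1, 42.7 and 60.2 at P8. It then reached 74.7, 53.1 and 103.3 CPM at P14 and 111.2, 121.2 and 96.6 at P21. All P14 and P21 samples lay above all P0 and P4 samples, while P8 replicate 3 exceeded P14 replicate 2. The slope was 0.10 ± 0.014 log2 units per day (adjusted p = 1.69e-05, edgeR), and P21 was 4.30-fold above P0 (log2 2.10 ± 0.36, adjusted p = 4.01e-04). No single step between neighbouring time points passed the test.

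Kcnd1, the alpha subunit with the fewest counts, had 4, 7 and 47 counts at P0 and 0, 22 and 44 at P4. It had 11, 12 and 52 counts at P8, 33, 20 and 61 at P14 and 107, 81 and 99 at P21. The level was low and scattered up to P14, and all 3 P21 samples, at 15.9 to 35.7 CPM, lay above all other samples, which reached 11.7 CPM at most. The slope of 0.12 ± 0.045 log2 units per day was just past the threshold (adjusted p = 0.0448, edgeR). It lost the call in 10 of 15 fits that left out 1 sample (all but those without P0 replicate 3, P4 replicate 1 or 3, P8 replicate 3 or P14 replicate 2), with adjusted p up to 0.184 without P21 replicate 1, and without the P21 time point (adjusted p = 0.680). P21 against P0 was not called (5.85-fold, adjusted p = 0.170).

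Among the KChIPs, Kcnip1 had the highest mean RPKM from P4 on, although Kcnip4 was higher in P21 replicate 1 (86.7 against 83.7 RPKM). It had 124.2, 50.2 and 40.9 CPM at P0, 257.1, 242.5 and 270.2 at P4 and 338.1, 397.5 and 423.5 at P8. It rose further to 820.4, 701.0 and 938.3 CPM at P14 and stood at 590.9, 780.7 and 891.0 at P21. The samples of P0, P4 and P8 formed ranges without overlap, all P14 and P21 samples lay above them, and P14 and P21 overlapped. The step from P0 to P4 was 3.57-fold (log2 1.84 ± 0.32, adjusted p = 0.00569, edgeR), and the step from P8 to P14, 2.12-fold, missed the threshold (adjusted p = 0.0763) but passed with DESeq2's Wald test (adjusted p = 0.00683), without the filter on low counts (0.0398) and without P0 replicate 1 (0.00402) or P0 replicate 3 (0.0325). P21 was 10.5-fold above P0 (log2 3.39 ± 0.34, adjusted p = 1.80e-06). Without P0 replicate 1, the highest P0 sample, the log2 differences from P0 were larger, 2.46 for P4 and 4.01 for P21.

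Kcnip4, a KChIP whose variant with an alternative N terminus is known to keep Kv4 channels from inactivating quickly, was at 33.3, 54.0 and 49.1 CPM at P0. It was at 107.2, 66.8 and 142.5 CPM at P4 and at 98.4, 120.9 and 79.0 at P8, 2 time points that overlapped, and all of these samples lay above P0. It reached 263.0, 235.8 and 335.9 CPM at P14 and 357.9, 404.8 and 347.0 at P21, with every P21 sample above every P14 sample. Kcnip4 rose 2.32-fold from P0 to P4 (log2 1.21 ± 0.28, adjusted p = 0.0327, edgeR) and 2.80-fold from P8 to P14 (log2 1.48 ± 0.28, adjusted p = 0.00717). The first step lost the call in 7 of 15 fits that left out 1 sample, those without replicate 1 or 3 of P0 or of P4 and those without replicate 1 of P8, P14 or P21, with adjusted p up to 0.124. P21 was 8.14-fold above P0 (adjusted p = 1.42e-06), and the slopes of Kcnip4 and Kcnip1 were 0.14 ± 0.015 and 0.15 ± 0.025 log2 units per day. The slope of Kcnip1 was 0.10 without P0 and 0.23 without P21, and was called in both.

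Kcnip3, also known as calsenilin and DREAM, a KChIP that can bind DNA, had 68, 0 and 2 counts at P0. At P4 it was at 77.3, 70.6 and 32.4 CPM, at P8 at 87.3, 25.0 and 102.4, at P14 at 93.5, 116.1 and 67.4 and at P21 at 50.1, 32.4 and 69.5. Every sample from P4 on lay above the P0 maximum of 13.1 CPM, and the later time points overlapped with each other. P21 was 11.2-fold above P0 (log2 3.48 ± 0.99, adjusted p = 0.0176, edgeR), whereas the step from P0 to P4 (13.2-fold, adjusted p = 0.0736) and the change over time points (adjusted p = 0.0544) did not pass. With all samples kept, the step from P0 to P4 passed with DESeq2's Wald test (adjusted p = 0.0307) and without the filter on low counts (0.0218), and the change over time points with limma-voom (0.0280) and without the filter (0.0123). Both also passed without P0 replicate 1, which held most of the P0 counts (4.72e-04 and 1.85e-04). Without that sample, 2 counts remained at P0 and the fitted log2 differences became 8.03 for P4 and 7.79 for P21, values that rest on these counts. Without P0 replicate 2 they were 3.12 and 2.87. The P21 call was lost without P0 replicate 3 (adjusted p = 0.0505) or P21 replicate 3 (0.0514).

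Kcnip2, the KChIP that dominates in heart ventricle, had no count in the 3 P0 samples, which allows up to 0.681 CPM of total counts in the shallowest of them. It had 1, 0 and 9 counts at P4, 1, 69 and 72 at P8, 0, 20 and 7 at P14 and 0, 0 and 26 at P21. P8 replicates 2 and 3, at 13.2 and 13.0 CPM, were the only samples above 4.16 CPM. Neither the trend (adjusted p = 0.868, edgeR) nor the change over time points (adjusted p = 0.217) passed.

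Dpp6 and Dpp10 are close relatives and both encode DPP subunits of the channel, and their courses differed. Dpp6 was at 219.6, 129.0 and 92.4 CPM at P0, at 67.5, 71.6 and 116.7 at P4 and at 92.3, 98.2 and 87.7 at P8. It was at 69.4, 94.8 and 63.9 CPM at P14 and at 64.8, 64.0 and 83.4 at P21. The P0 and P8 samples all lay above the P21 samples, P4 overlapped with every other time point, and P0 replicate 1 stood highest. The slope was -0.043 ± 0.014 log2 units per day (adjusted p = 0.0261, edgeR), and P21 was lower than P0 (log2 -1.05 ± 0.32, adjusted p = 0.0238), where 10.6% of all genes tested were called as lower at P21. Both calls were lost without P0 replicate 1 (adjusted p = 0.113 for the slope, 0.136 for P21 against P0), P21 replicate 1 (0.0559 and 0.0847) or P21 replicate 2 (0.0582 and 0.0889), and the slope was -0.028 without P0 replicate 1 and -0.019 (adjusted p = 0.418) without all P0 samples. The change over time points (adjusted p = 0.0953) passed with DESeq2's likelihood ratio test (0.0202), with total counts as library size (0.0221) and without P0 replicate 3 (0.0267) or P4 replicate 3 (0.0463).

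Dpp10 rose the most of the 9 genes by slope. It was at 21.3, 16.5 and 53.9 CPM at P0, at 74.3, 49.0 and 93.0 at P4 and at 139.1, 126.3 and 92.0 at P8. It was at 334.3, 273.9 and 464.0 CPM at P14 and at 530.1, 498.4 and 388.8 at P21. Neighbouring time points overlapped except P8 and P14, where every P14 sample was above every earlier sample. The slope was 0.19 ± 0.020 log2 units per day (adjusted p = 9.76e-07, edgeR) and P21 was 15.4-fold above P0 (log2 3.95 ± 0.41, adjusted p = 2.90e-06), with a log2 difference of 4.60 without P0 replicate 3, the highest P0 sample. The step from P8 to P14 was 3.0-fold (log2 1.58 ± 0.37, adjusted p = 0.0291) and lost the call in 5 of 15 fits that left out 1 sample (any P8 sample, or P14 replicate 1 or 3), with adjusted p up to 0.156.

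Steps between neighbouring time points were called for few of the 9 genes. From P0 to P4, 2 of 9 were higher (Kcnip1 and Kcnip4), against 1.74% of all genes tested, and 0 were lower, against 0.231%. From P8 to P14, 2 of 9 were higher (Kcnip4 and Dpp10), against 1.29%, and 0 lower, against 1.38%. From P4 to P8 and from P14 to P21 edgeR called 0 of 9 in either direction, where 0.882% and 0.063% of all genes were called as higher and 0.252% and 0.266% as lower. In these latter steps 0 of 9 had an unadjusted p below 0.05 and DESeq2's Wald test also called 0, while from P0 to P4 1 of 9 (Dpp6) was lower at an unadjusted p below 0.05 and from P8 to P14 0 were. From P0 to P21, 6 of 9 were higher (Kcnd2, Kcnd3, Kcnip1, Kcnip3, Kcnip4 and Dpp10) and Dpp6 lower, against 12.2% and 10.6% of all genes.

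Within each family, the share of a gene in the summed RPKM does not depend on scaling between samples. It does depend on the exon length used for each gene, as do the ratios between genes given below. Counts per gene do not tell which transcripts of a gene were present. In the DPP family, Dpp6 made up 84.2 ± 13.5% (SD, n = 3) at P0 and 60.1 ± 5.83% at P4. Its share was 50.2 ± 4.52% at P8, 22.2 ± 7.92% at P14 and 16.4 ± 4.47% at P21, with Dpp10 as the rest. Among alpha subunits, Kcnd2 had the largest share in all 15 samples, from 75.3 ± 7.92% at P0 to 57.5 ± 5.60% at P21. Kcnd3 went from 19.9 ± 9.71% to 30.8 ± 1.95% and Kcnd1 from 4.76 ± 5.44% to 11.6 ± 5.40%. The rank of Kcnd2 rests in part on exon length, 5152 bases against 9587 for Kcnd3. In counts, Kcnd3 exceeded Kcnd2 in P14 replicate 1 (406 against 366), P21 replicate 1 (333 against 300) and P21 replicate 2 (572 against 550). Kcnd2 had more counts in all other samples. Among KChIPs, Kcnip1 made up 42.9 ± 15.6% at P0 and 50.7 ± 4.73% at P21, and Kcnip4 53.2 ± 21.9% and 43.1 ± 5.62%. The share of Kcnip3 was highest at P4 with 19.7 ± 8.57% and 6.01 ± 2.03% at P21.

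**Figure D3:**
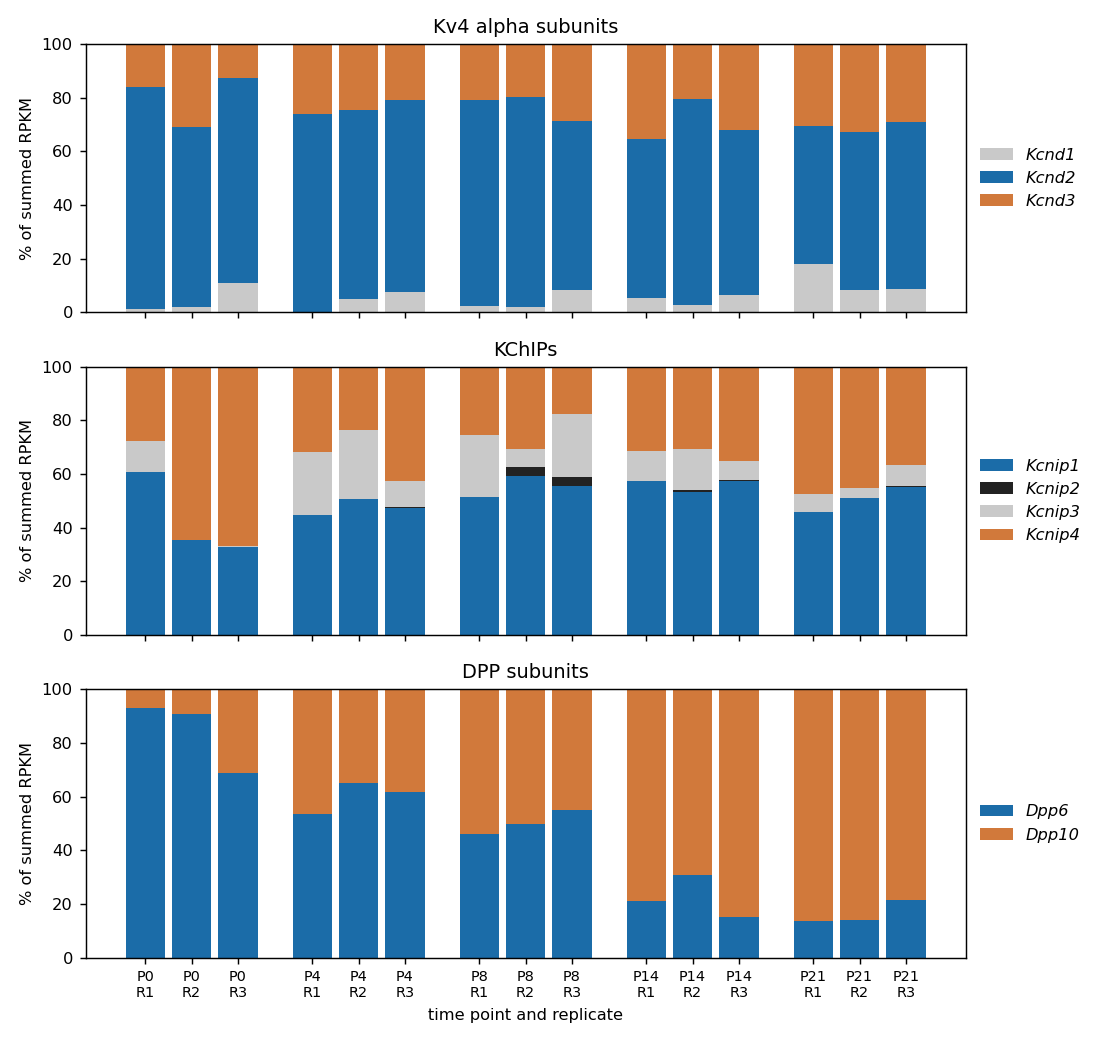
Share of each gene in the summed RPKM of its family (y axis, percent) in each of the 15 samples (x axis, R1 to R3 are replicates). The bars of a sample add up to 100%: Dpp6 falls from 84.2% of the DPP family at P0 to 16.4% at P21 on average, Kcnd2 has the largest RPKM share among alpha subunits in every sample, and Kcnip1 and Kcnip4 hold most of the KChIP sum.

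For 3 pairs, the log2 ratio per kilobase of exon (0.5 added to each count) was compared between the 6 samples of P0 and P4 and the 6 of P14 and P21 with a two-sided exact permutation test of 924 arrangements. The ratio of Dpp10 to Dpp6 rose from a mean of -1.66 ± 1.47 (SD) to 2.12 ± 0.58, a 13.8-fold increase with no overlap between the groups (exact p = 0.00216, the smallest that this test can give, and 0.00649 adjusted over the 3 ratios). It lay between 0.821 and 1.18 on the linear scale at P8, and every P14 and P21 sample held more Dpp10 than Dpp6, at ratios of 2.26 to 6.39. The ratio of Kcnd3 to Kcnd2 rose from -1.81 ± 0.56 to -1.05 ± 0.45, which overlapped and failed the correction (exact p = 0.0368, adjusted 0.0552). The ratio of Kcnip4 to Kcnip1 differed by -0.36 between the groups (exact p = 0.396), and its mean was lowest at P8, at -1.20 ± 0.39, a time point that was not tested. With 3 samples against 3, as for P4 against P21, the smallest p is 0.1, which the ratio of Dpp10 to Dpp6 reached with a difference of 2.98.

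**Figure D4:**
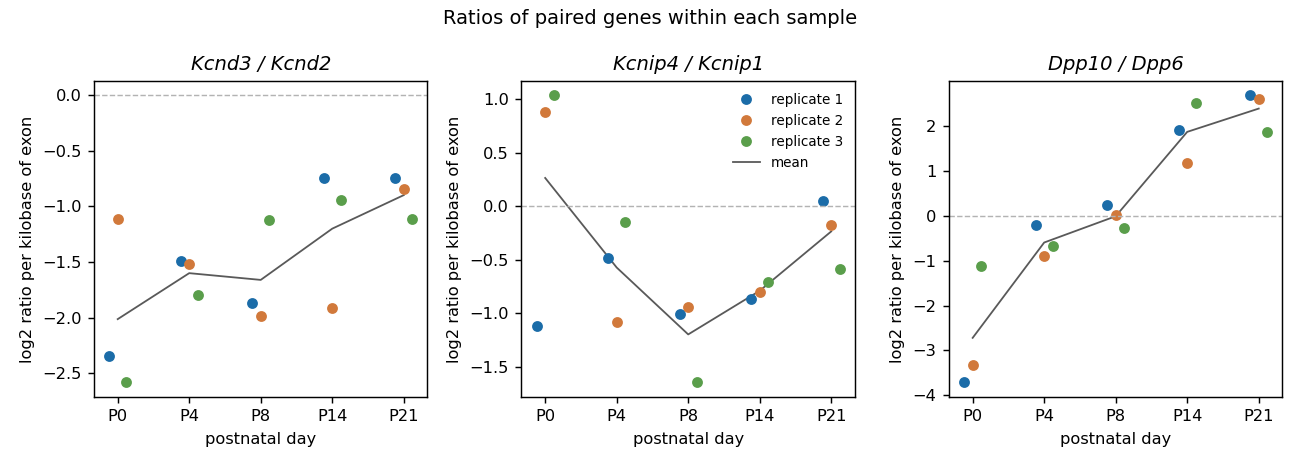
Log2 ratio of 2 genes per kilobase of exon within each sample (y axis) by time point (x axis), with points coloured by replicate, a line through the means and a dashed line at equal levels. Dpp10 to Dpp6 crosses equality at P8 and lies above it in all P14 and P21 samples, Kcnd3 to Kcnd2 stays below it throughout, and Kcnip4 to Kcnip1 is scattered at P0 from -1.12 to 1.03.

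Summed over families, the alpha subunits went from 15.4 ± 2.48 RPKM at P0 to 32.3 ± 1.15 at P21, the DPP genes from 15.4 ± 5.02 to 31.1 ± 3.07 and the KChIPs from 28.3 ± 7.26 to 208 ± 24.6. The KChIP sum was 1.90 ± 0.683 times that of the alpha subunits at P0 and 6.36 ± 1.33 times at P4. The ratio was 5.45 ± 0.591 at P8, 8.71 ± 1.55 at P14 and 6.46 ± 0.986 at P21. Every sample from P4 on lay at 4.79 or above and every P0 sample at 2.60 or below. The DPP sum stayed between 0.595 and 1.51 times that of the alpha subunits in all samples, with means of 1.03 at P0 and 0.961 at P21. These sums are descriptions and were not tested. They are scaled to total counts and not by TMM, whose factors were 1.11 to 1.13 at P0 and 0.851 to 0.893 at P21. A rise from P0 to P21 is therefore smaller in RPKM than in TMM-scaled CPM, whereas the ratios between families do not depend on this scaling.

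Markers of other cell types moved as well, and their part in the courses of the 9 genes was not tested. The 7 markers of Bergmann glia and astrocytes summed to 3713 to 5443 CPM at P0, 5195 to 8925 at P4 and 8009 to 9588 at P8. They summed to 6334 to 6797 CPM at P14 and 3390 to 4893 at P21. In the trend 3 of 7 rose and 1 (Fabp7) fell, and all 7 changed over time points. Much of the course of the sum was that of Fabp7. On average it held 2687 of 4512 CPM at P0, 4662 of 8974 at P8 and 186 of 4089 at P21. The 5 oligodendrocyte markers rose, all 5 of them, from 13.7 to 35.9 CPM at P0 through 52.9 to 108.2 at P4, 202.2 to 356.3 at P8 and 418.1 to 437.1 at P14 to 395.6 to 844.9 at P21, with Mag and Mobp at 0 in all P0 samples, Mag at P4 and Mog at P8. The 5 granule neuron markers summed to 318.5 to 542.3 CPM at P0, 328.1 to 653.2 at P4, 608.5 to 1016 at P8, 551.3 to 1291 at P14 and 352.4 to 635.4 at P21, 2 of 5 rose, and Cbln3 was at 0 at P4. The 6 markers of Golgi, basket and stellate cells summed to 5.58 to 35.1 CPM at P0, 45.4 to 66.0 at P4, 25.4 to 57.9 at P8, 47.2 to 64.1 at P14 and 17.2 to 48.8 at P21, none of 6 rose or fell in the trend, and Slc6a5 was at 0 at P4. The vascular markers (3, of which 1 fell) summed to at most 120.6 CPM and the microglia markers (4, none called in the trend) to at most 25.5 in any sample.

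Of 28 partners and relatives of the channel complex, 21 passed the filter on low counts. Of the neuronal calcium sensors related to the KChIPs, 2 of 6 tested rose (Hpcal1 and Vsnl1) and 1 fell (Ncs1), and 4 changed over time points, Hpca among them. Hpcal1, a calcium sensor of the visinin-like group, went from 35.8 ± 23.0 CPM (SD, n = 3) at P0 to 1995 ± 391 at P21 (slope 0.29 ± 0.034, adjusted p = 3.86e-06, edgeR), and Ncs1, neuronal calcium sensor 1, from 393 ± 87.0 to 147.6 ± 45.0 (slope -0.075 ± 0.012, adjusted p = 7.61e-05). Of the other auxiliary subunits, 4 of 8 were tested. Kcnab1 and Kcnab2, cytoplasmic beta subunits of Kv channels, rose, Kcnab1 from 19.5 ± 28.2 to 623 ± 18.4 CPM (slope 0.21 ± 0.039, adjusted p = 4.19e-04), and Kcne1l, the annotation's name for Kcne5, fell from 17.7 ± 14.7 to 1.65 ± 1.59 CPM (slope -0.19 ± 0.059, adjusted p = 0.0245). The call of Kcne1l was lost without any 1 of the 3 P21 samples, with adjusted p up to 0.0808.

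Of the 3 T-type calcium channel genes, whose current also activates below threshold, Cacna1g rose from 69.0 ± 13.6 CPM at P0 to 660 ± 127 at P21 (slope 0.18 ± 0.018, adjusted p = 5.94e-07, edgeR). Cacna1h fell, from 4.26 to 10.5 CPM at P0 to 0 in the 3 P14 samples and at most 1.06 CPM at P21 (adjusted p = 0.0239), a call lost without P21 replicate 1 (adjusted p = 0.0541) or 3 (0.0543). The slope of Cacna1h was -0.26, and -0.47 without P21 replicate 2. None of the other A-type channels (Kcna4 and Kcnc4), of the 3 tested peptidase relatives of the DPP genes (Fap, Dpp8 and Dpp9) or of the 3 tested scaffold and anchor proteins (Dlg1, Dlg4 and Akap5) was called by edgeR in the trend or over time points. Kcna4, with a slope of -0.069 ± 0.028, had an unadjusted p of 0.0228 in the trend, the 1 such value below 0.05 among these 8 genes.

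The genes with the most similar course were sought for each of the 5 genes that changed over time points, by Pearson's r of log2 CPM over the 15 samples among 9303 tested protein-coding genes of at least 10 CPM on average. The nearest were Mical2 (r = 0.919) and Tnpo2 (0.916) to Kcnd2, Ece1 (0.959) and Nell2 (0.942) to Kcnd3, Scn1a (0.984) and Syndig1 (0.978) to Kcnip1, Car8 (0.962) and Nptn (0.959) to Kcnip4, and Zfp385c (0.969) and Rnf19b (0.969) to Dpp10. The number of genes with r above 0.9 was 6 for Kcnd2, 82 for Kcnd3, 182 for Kcnip1, 137 for Kcnip4 and 230 for Dpp10. These values describe shared courses, since all genes share the same 15 libraries and time points. Pearson's r does not measure the size of a change. The slope of Mical2 was 0.22 log2 units per day against 0.054 for Kcnd2, and Mical2 had no count in 2 of 3 P0 samples.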

How the data were processed

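RNA of laser-captured mouse PCs was measured in 15 samples, grouped by their titles into 5 time points of 3. According to the paper's methods and the submitters' processing notes, the authors trimmed the reads (cutadapt 1.2.1 among other tools), mapped them with GSNAP to the mouse genome (GRCm38/mm10) and kept unique alignments. HTSeq 0.5.3p9 then counted only reads lying fully inside a feature (its intersection-strict setting). The deposited values are raw counts per Ensembl gene, 1 library per sample, and the annotation release used for counting is not given in the sources used here. HTSeq's tallies of reads assigned to no feature (16.7 to 29.8%) or to several genes (1.16 to 1.57%) were kept out of totals and tests.

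From the counts, edgeR 4.0.16 in R 4.3.3 (TMM, filterByExpr by time point, quasi-likelihood F test, Benjamini-Hochberg) tested the trend with day, the time point as a factor and contrasts between time points, with all 15 samples in each fit, and scripts were tested on simulated data. Standard errors were derived from the F statistic. CPM used TMM-scaled library sizes and RPKM the total counts on genes with summed exon lengths of GENCODE M21. The biological coefficient of variation was 0.705. Replicates differed far more than by sampling noise (chi-square per gene 18.4 to 56.5), so each counted as 1 sample. The p-values measure the spread between these samples, which the methods call biological replicates without saying whether each came from its own mouse. Alternatives were DESeq2 1.42.0, limma-voom (limma 3.58.1), other size factors, no filter on low counts, log2(day + 1), a replicate block, no P0 samples and each sample left out in turn. Leaving out P21 and using total counts as library size were added after seeing the data. Tables and figures used Python 3.11.15, numpy 2.4.6, pandas 2.3.3 and matplotlib 3.10.9.

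The members and lists were chosen with earlier results of these data known. Named genes were all 9 members, the cell type markers, the 3 partners or relatives with the largest rising and falling slope among those called in the trend, and the 2 nearest genes by correlation for each member called over time points. Other genes of the partner lists named here were chosen after their values were seen. The ratios were compared with exact permutation tests.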

Additional observations from a re-analysis of the deposited data

How the results depend on the processing

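Kcnd3, Kcnip1, Kcnip4 and Dpp10 kept their trend and their change over time points under every alternative run, and the trend of Kcnd2 was kept as well. Over all settings, 5 or 6 of the 9 genes rose. The number that fell went from 1 to 0 with limma-voom, without P0 and without P21 (Dpp6, adjusted p 0.0586, 0.418 and 0.0931), and ranged from 0 to 1 when 1 sample was left out. The fits with 1 sample left out called 1570 to 1814 of all genes tested as rising and 1800 to 2161 as falling. Without P21, 1097 genes of all tested fell in the trend, against 2021, and 1767 changed over time points, against 2753. The slopes of Kcnip3 and Kcnip2, not called, turned to -0.0071 and -0.091 without P0, whereas on log2(day + 1) Kcnip3 was called as rising (0.86, adjusted p = 0.0372). Kcnd1 lost its trend without a filter on low counts (adjusted p = 0.0520), on log2(day + 1) (0.147) and with total counts as library size (0.0820). Kcnd2 lost its change over time points without the filter (0.0630), without P0 (0.0618), without P21 (0.177) and with total counts (0.203). Kcne1l lost its trend with limma-voom (0.616), on log2(day + 1) (0.421) and without P21 (0.587), and Cacna1h without P0 (0.0789) and on log2(day + 1) (0.0729).

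From P0 to P4, DESeq2's Wald test called 4 of the 9 genes as higher, against 2, and the number ranged from 1 to 2 with 1 sample left out. From P8 to P14 it ranged from 1 to 3, and from P0 to P21 between 0 and 1 were lower. Over all genes, DESeq2 called 785 changes from P0 to P4 (edgeR 281), 496 from P4 to P8 (162), 844 from P8 to P14 (382) and 173 from P14 to P21 (47). The edgeR counts ranged from 186 to 302, 74 to 201, 163 to 441 and 24 to 68 with 1 sample left out, and the cause of the differences was not tested. For P4 against P21 alone, the ratio of Kcnd3 to Kcnd2 rose by 0.70 and that of Dpp10 to Dpp6 by 2.98 (exact p = 0.1 for both, the smallest possible), and that of Kcnip4 to Kcnip1 by 0.34 (exact p = 0.5), the opposite direction to that over all 12 samples. With 1 sample left out, the ratio of Kcnd3 to Kcnd2 rose by 0.60 to 0.93 and lost significance at 0.05 in 6 of 12 repeats.

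Deviations from the time point means of samples with the same replicate number correlated at -0.0033 on average, with 0 of 30 pairs above 0.1. The mean for different numbers, 0.0017, is tied to this one, because the deviations of a time point sum to 0. No pairing by replicate number was thus seen. These values cannot tell whether samples shared a litter or batch, which was not tested. With a replicate block in edgeR, 6 genes rose, 1 fell and 6 changed over time points (Kcnip3 in addition, adjusted p = 0.0449). From P0 to P4, 1 gene in place of 2 was higher, since Kcnip1 kept its call and Kcnip4 lost it (adjusted p = 0.0552). The ratio of Kcnd3 to Kcnd2 rose by 0.76 with an exact p of 0.0648. The low counts of Kcnd1, Kcnip2 and of Kcnip3 at P0 limit what can be said of them at this depth.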
